A study of Mus musculus with 22 samples.

Results

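Transcripts of 10 target genes of NRF2 were followed in the esophageal epithelium of untreated mice, mice with eosinophilic esophagitis (EoE) and mice with esophageal squamous cell carcinoma (ESCC). The genes were Gclc, Gclm, Txnrd1, Srxn1, Nqo1, Cbr3, Ptgr1, Gsta4, Gstp1 and Hmox1, chosen by name, and all 10 were among the 17541 genes of the count tables. Peeled epithelium of 13 C57BL6 mice was profiled by inDrop, a droplet method that gives the transcripts of a cell one barcode and each captured molecule a unique molecular identifier (UMI). The control group held 3 young mice (numbers 1, 2 and 6, 3 to 4 months) and 3 old mice (numbers 3, 4 and 5, 18 to 20 months), none of them treated. EoE-like inflammation was induced in 2 young mice (9 and 10, 6 to 8 weeks) and 2 old mice (11 and 12, 19 to 20 months) by 12 days of the vitamin D analog MC903 with ovalbumin (OVA) on the ears. OVA by gavage and in the drinking water (15 g/L) followed, up to day 32. The 3 ESCC mice (17F, 17M and 8M, 8 to 10 months) drank the carcinogen 4-nitroquinoline 1-oxide (4NQO, 100 µg/ml) for 16 weeks and were left without it for 8 weeks. Cells came from peeled epithelium, so that ESCC here means the epithelium of a 4NQO-treated mouse and not a dissected tumor. The ESCC mice share no age group with the others, so age and treatment cannot be told apart in them.

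NRF2, encoded by Nfe2l2, is a transcription factor that the adaptor protein KEAP1 marks for degradation. When electrophiles or oxidants modify KEAP1, NRF2 escapes degradation, enters the nucleus, pairs with a small MAF protein and binds antioxidant response elements near its target genes. Its targets make glutathione, regenerate thioredoxin and peroxiredoxin, reduce quinones and carbonyls, conjugate electrophiles and break down heme. In squamous carcinoma of the human esophagus, mutations of NFE2L2 and KEAP1 are a known feature.

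The core of the antioxidant response element, TGACNNNGC, was searched on both strands of the promoter windows of RefSeq (build GRCm38.p6), which reach from 250 bases before to 50 bases after a gene's start. A window was given for 7 of the 10 genes: Gclm, Txnrd1, Srxn1, Nqo1, Cbr3, Ptgr1 and Gstp1. The core was matched in 3 of them, in each case on the strand opposite to the gene. The stretches around the matches upstream of a start are shown because they hold the letters NRF2 is known to bind, with the matched bases in capitals, written 5′ to 3′ on the strand of the gene.
Gclm (chr3:122245393-122245461, plus strand): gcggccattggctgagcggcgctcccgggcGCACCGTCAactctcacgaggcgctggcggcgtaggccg
Txnrd1, second of its 3 windows (chr10:82859084-82859152, plus strand): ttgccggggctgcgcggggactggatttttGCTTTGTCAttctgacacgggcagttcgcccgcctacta
The match lay 134 to 126 bases before the start in Gclm, 92 to 84 bases before it in Txnrd1 and from 28 to 36 bases after it in Srxn1. By window, 3 of the 9 windows of these genes held a match, against 12.4% of all 32851 windows of this length. By gene, 14.0% of 27025 genes held one. In 149 of all matching windows the match overlapped the AP-1 motif TGANTCA, which none of the 3 matches above did. A match describes letters and not a bound site, and enhancers outside these windows were not searched.

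After the cell filter, 1493 of 1500 deposited control cells, 1473 of 1500 ESCC cells but only 143 of 1500 EoE cells remained. A control mouse had 111043 to 427752 UMIs, an EoE mouse 6245 to 41909 and an ESCC mouse 1240388 to 2103543, with a median of 990, 519 and 3108 UMIs per cell. Each condition was made of its own libraries, so library and condition cannot be told apart. Of 4218 barcodes, 239 occurred in both libraries of 1 mouse and 43 in several mice, and UMIs were therefore summed per mouse. Summed markers of basal cells lay between 14397 and 21372 counts-per-million (CPM) in controls, 23703 and 35558 in ESCC and 1773 and 3140 in EoE. Suprabasal markers lay between 32482 and 63885 CPM in controls, 9915 and 22338 in ESCC and 105680 and 133670 in EoE, without overlap, and superficial markers lay between 2008 and 10222, 666 and 1880, and 5651 and 18668. All 17 immune markers listed were at 0 in EoE, 11 of 17 were at 0 in controls, where they summed to 0 to 36.1 CPM, and in ESCC they summed to 98.1 to 142 CPM. In EoE 3 UMIs over the group amounted to 29.8 CPM, above the mean control sum of 11.6, so this 0 does not show fewer immune transcripts. Endothelial markers summed to 74.2 to 255 CPM in EoE, with 6 of 7 at 0, and to 0 to 7.98 in controls.

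Levels below are CPM, the UMIs of a gene as a share of the TMM-scaled total UMIs of a mouse, and differences are log2 fold changes with their standard error from edgeR's quasi-likelihood test. In ESCC, 9 of the 10 genes were higher than in control epithelium at an adjusted p below 0.05 and none was lower. Over all 5867 genes tested 17.9% were called higher and 16.7% lower. The median log2 fold change of the 10 genes was 1.53, against 0.01 over all genes tested. The largest differences were those of Gclc (5.47-fold), Hmox1 (5.17-fold) and Srxn1 (4.72-fold), and Gstp1 (1.30-fold) was the one gene that did not pass. In 8 of the 10 genes every ESCC mouse lay above every control mouse, as did 13.8% of all genes tested. In sums over cells, a change in the share of a cell type and a change of RNA per cell cannot be told apart.

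**Figure D1:**
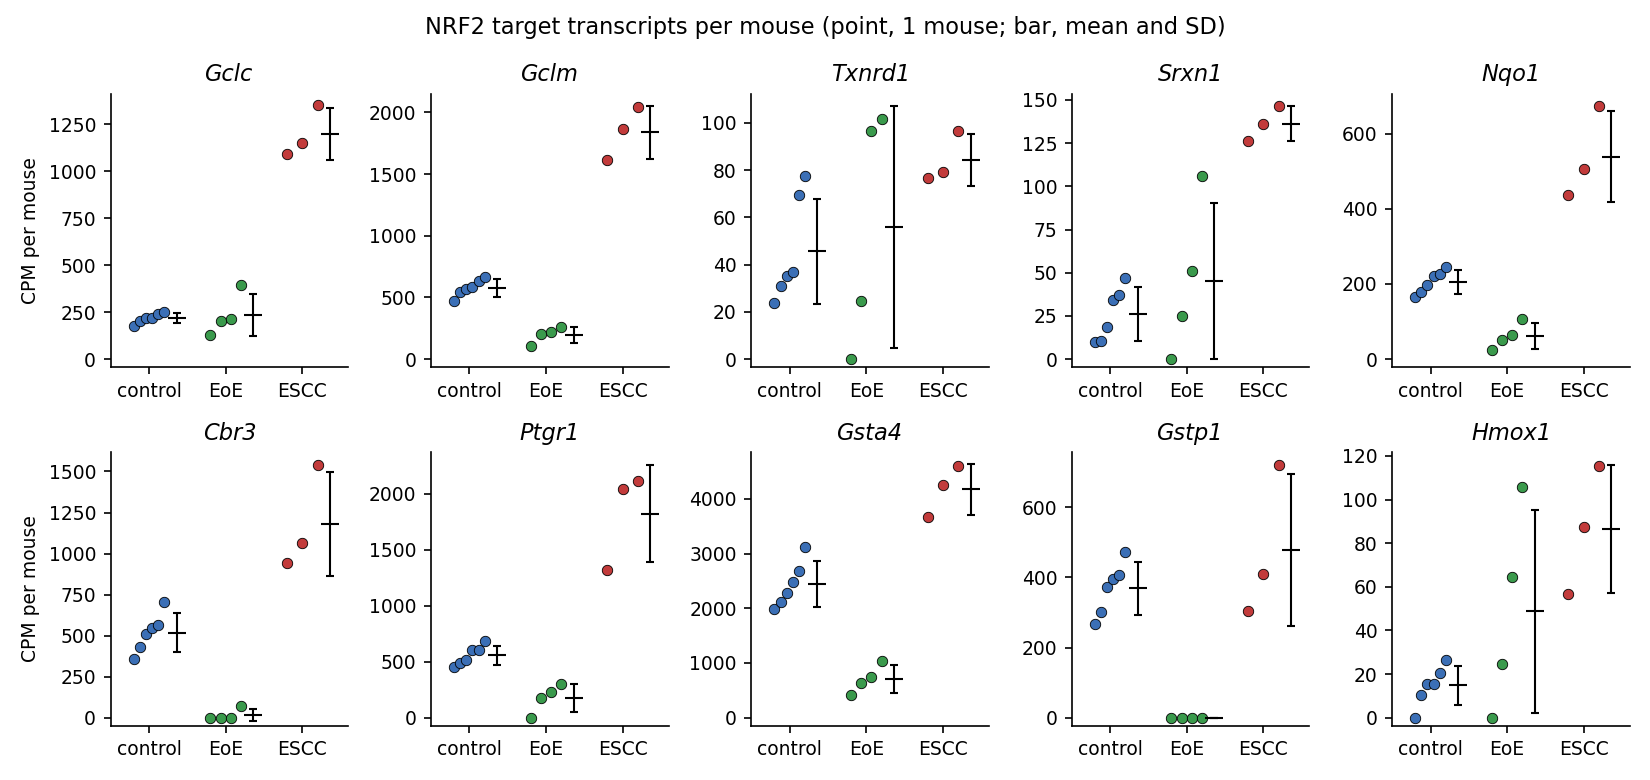
CPM of the 10 genes in each mouse (y axis, linear and including 0, with its own scale for each gene) for 6 control, 4 EoE and 3 ESCC mice, where each point is 1 mouse and the bar beside the points is the mean with the SD. The ESCC mice lie above all control mice for every gene but Txnrd1 and Gstp1, and the Gstp1 points of EoE lie at 0.

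Both subunits of glutamate-cysteine ligase, which makes the first and rate-limiting step of glutathione synthesis, rose together in ESCC. Gclc (chr9:77754535-77794485, GRCm38, plus strand) encodes the catalytic subunit and had a level of 178 CPM in the lowest control mouse, a median of 218 and 251 in the highest. Its level was 1091 CPM in ESCC mouse 17F, 1351 in 17M and 1150.0 in 8M. No ESCC mouse came near the control range, and the log2 fold change was 2.45 ± 0.19 (adjusted p = 4.9e-12). Gclm (chr3:122245557-122270732, plus strand) encodes the modifier subunit and ranged over the controls from 468 to 665 CPM around a median of 574. The ESCC mice had 1868 CPM (17F), 2040.3 CPM (17M) and 1611 CPM (8M). Again all 3 stood above the controls, with a log2 fold change of 1.68 ± 0.18 (adjusted p = 1e-08). In GENCODE M21, exons of Gclm overlap those of Gm17494 on the opposite strand and of Gm6061 on the same strand.

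The genes of the thioredoxin branch were sparsely counted and were higher in ESCC. Txnrd1 (chr10:82833951-82897712, plus strand), the cytosolic thioredoxin reductase, had 23.9 CPM in the lowest control mouse, a median of 36.1 and 77.4 in the highest. The ESCC mice had 96.7 (17F), 76.6 (17M) and 79.3 CPM (8M), so 17M lay within the control range. The log2 fold change was 1.05 ± 0.26 (adjusted p = 0.00207), on 63 UMIs in all control mice. Srxn1 (chr2:152105516-152111376, plus strand), sulfiredoxin, repairs overoxidized peroxiredoxins. It ranged from 9.92 to 46.8 CPM over the controls, with a median of 26.4 and 46 UMIs in all. With 146 CPM in 17F, 126 in 17M and 136 in 8M the ESCC mice were close to each other and above all controls (log2 fold change 2.24 ± 0.26, adjusted p = 3.5e-08).

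The 3 reductases of quinones, carbonyls and unsaturated aldehydes or ketones also rose. Nqo1 (chr8:107388225-107403206, minus strand), which reduces quinones to hydroquinones and is a widely used marker of NRF2 activity, lay between 164 and 246 CPM in controls (median 210.2). Its level was 436 CPM in 17F, 506 in 17M and 674 in 8M, without overlap (log2 fold change 1.39 ± 0.18, adjusted p = 2.5e-07). Cbr3 (chr16:93683215-93690990, plus strand), a carbonyl reductase, lay between 357 and 702 CPM in controls (median 529). The ESCC mice had 939 (17F), 1061 (17M) and 1541 CPM (8M), all above the controls (log2 fold change 1.17 ± 0.21, adjusted p = 6.9e-05). Ptgr1 (chr4:58965439-58987119, minus strand) reduces the double bond of lipid aldehydes such as 4-hydroxynonenal and of prostaglandin metabolites. Control mice had 456 to 681 CPM (median 561), and the ESCC mice had 1322 (17F), 2040.3 (17M) and 2112 CPM (8M). Mouse 17F was the lowest of the 3 and still lay above every control (log2 fold change 1.70 ± 0.21, adjusted p = 1.1e-07).

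The glutathione S-transferases, which couple glutathione to electrophiles, gave the smallest differences. Gsta4 (chr9:78182774-78209349, plus strand) has a preference for 4-hydroxynonenal and ranged from 1994 to 3123 CPM over the controls, with a median of 2380 CPM. The ESCC mice had 3668 (17F), 4603 (17M) and 4248 CPM (8M), again without overlap. Its log2 fold change was 0.77 ± 0.22 (adjusted p = 0.00695), and without mouse 17M it was 0.69 with an adjusted p of 0.1, so the call rested on that mouse. Gstp1 (chr19:4035407-4037985, minus strand) ranged from 267 to 473 CPM over the controls (median 383) and had 408 (17F), 304 (17M) and 721 CPM (8M) in ESCC. Only 8M lay above the controls, and the log2 fold change of 0.38 ± 0.22 did not pass (adjusted p = 0.195). Gstp1 shares 42.2% of the 31-base sequences in the last 500 bases of its transcripts with Gstp2, which had 71 to 162 UMIs in each ESCC mouse and 0 or 1 in each control mouse over all deposited cells. How reads were split between this pair is uncertain. None of the other 9 genes shares more than 10% of these sequences with another gene.

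Hmox1 (chr8:75093621-75100589, plus strand), heme oxygenase, turns heme into biliverdin, iron and carbon monoxide and also responds to factors other than NRF2. It had only 27 UMIs in all control mice, from 0 to 26.6 CPM with a median of 15.5. The ESCC mice had 87.6 (17F), 115.5 (17M) and 56.7 CPM (8M), which all exceeded the controls (log2 fold change 2.37 ± 0.32, adjusted p = 6.6e-07). Macrophages are a known site of Hmox1, and the 8 macrophage markers listed summed to 61.6 to 89.7 CPM in ESCC and 0 to 36.1 CPM in controls. The 44 cells of ESCC cluster 9, in which Cd74, H2-Aa, Lyz2 and Il1b lead, had 78.2 CPM of Hmox1 without scaling against 73.9 in the other 1429 ESCC cells used. The 21 ESCC cells called non-epithelial held no Hmox1 UMI. With cluster 9 left out, an alternative added after the data were seen, 9 of the 10 genes were still called higher.

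The transcripts of the regulator itself did not rise. Nfe2l2 ranged from 785 to 1157 CPM in controls (median 1001) and had 731 (17F), 765 (17M) and 882 CPM (8M) in ESCC. Mice 17F and 17M lay below all controls and 8M did not, and the log2 fold change of −0.31 ± 0.19 did not pass (adjusted p = 0.226). Keap1 ranged from 34.4 to 79.4 CPM in controls (median 48.3) and had 75.7 (17F), 65.4 (17M) and 76.3 CPM (8M) in ESCC. These levels lay within the control range, and Keap1 was called higher near the threshold (log2 fold change 0.59 ± 0.23, adjusted p = 0.0426). Over all deposited cells Keap1 was not called (0.57, adjusted p = 0.0626). NRF2 protein, on which KEAP1 acts, was not measured.

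Control and ESCC epithelium were next compared by class of cell, since the share of cells in the Krt5 class was 50.2% in controls and 71.1% in ESCC. In EoE it was 17.5%, and the Krtdap class took 19.6% of control, 9.57% of ESCC and 44.8% of EoE cells. Cells took their class from their nearest control cells, and the member genes were left out of the clustering. The Krt5 class holds cells near control clusters rich in Krt5, a keratin of basal cells, and the Krtdap class holds cells near control clusters rich in Krtdap, a gene of differentiating cells. An intermediate class, near a control cluster between these, took 30.2% of control and 19.4% of ESCC cells and was not tested. Within the control mice, classes differed in these genes in different directions. In the Krt5 class Gclm had 626 to 1036 CPM, here and below for classes without TMM scaling, and in the Krtdap class 0 to 237. Gsta4 was the other way round, with 762 to 1094 in the Krt5 class and 2997 to 4398 in the Krtdap class, and Ptgr1 had 199.8 to 310.3 and 679 to 1504. For each of the 3 genes the ranges of the 6 control mice did not overlap between the Krt5 and Krtdap classes. Nor did those of Cbr3 (190 to 418 and 433 to 1094), while those of Gclc, Nqo1, Txnrd1, Srxn1, Hmox1 and Gstp1 overlapped. The classes were made from these same control cells, and the share of all genes without overlap between them was not counted. In the intermediate class Gclm had 257 to 483, Gsta4 2081 to 4014 and Ptgr1 435 to 1040 CPM, the last 2 overlapping with the Krtdap class.

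Within the Krt5 class, all 9 genes that passed the filter on low counts were higher in ESCC, where 16.7% of 3692 genes were called higher. Within the Krtdap class all 8 that passed the filter were higher, where 17.0% of 2501 genes were. Hmox1 passed the filter in neither class and Txnrd1 only in the Krt5 class. Gsta4 rose from 909 ± 132 CPM (SD, n = 6) to 2534 ± 411 (SD, n = 3) in the Krt5 class and from 3928 ± 505 to 5301 ± 349 in the Krtdap class. Its log2 fold change was 1.73 ± 0.17 in the first and 0.66 ± 0.20 in the second. In Gclc, the changes of 2.30 ± 0.20 and 2.48 ± 0.25 were close to each other, as were those of Nqo1 (1.51 ± 0.20 and 1.54 ± 0.26). Gstp1, not called over all cells, was called higher within the Krt5 class (0.66 ± 0.23, adjusted p = 0.034) and within the Krtdap class (1.10 ± 0.26, adjusted p = 0.0021). In the intermediate class its mean was lower in ESCC, with 588 ± 203 CPM (SD, n = 6, 316 to 828) in controls and 501 ± 244 (SD, n = 3, 288 to 767) in ESCC, a difference within the spread between mice. When cells were classed by their own Krt5 and Krtdap UMIs, the Krtdap call was lost (0.60, adjusted p = 0.101). The call in the Krt5 class was lost without mouse 8M (0.29, adjusted p = 0.262). It was also lost without control mouse 1, 2, 3 or 4 (adjusted p of 0.0649 to 0.0953) and with DESeq2 (adjusted p = 0.0699). Txnrd1 in the Krt5 class (0.74 ± 0.26, adjusted p = 0.0378) was lost without 17F, 17M or control mouse 1, 4 or 6 (adjusted p of 0.0545 to 0.154) and with DESeq2 (0.0603).

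Whether the ESCC difference itself differed between classes was tested by an interaction in a fit with the mouse as a block, added after the data were seen. Over 3954 genes, 3.26% had a lower ESCC difference in the Krtdap class. Gsta4 (−1.06 ± 0.22 on the log2 scale, adjusted p = 0.000506) and Cbr3 (−0.89 ± 0.22, adjusted p = 0.00566) were among them, with a higher fold in the Krt5 class. Hmox1 missed the threshold (−2.43 ± 0.79, adjusted p = 0.0525). For Gclc (0.21 ± 0.29, adjusted p = 0.775) and Nqo1 (0.03 ± 0.29, adjusted p = 0.974) no difference between classes was detected. Nor was one detected for Srxn1 (−1.01 ± 0.63, adjusted p = 0.402) or for Ptgr1, Gstp1 and Gclm (adjusted p of 0.258 to 0.624).

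**Figure D2:**
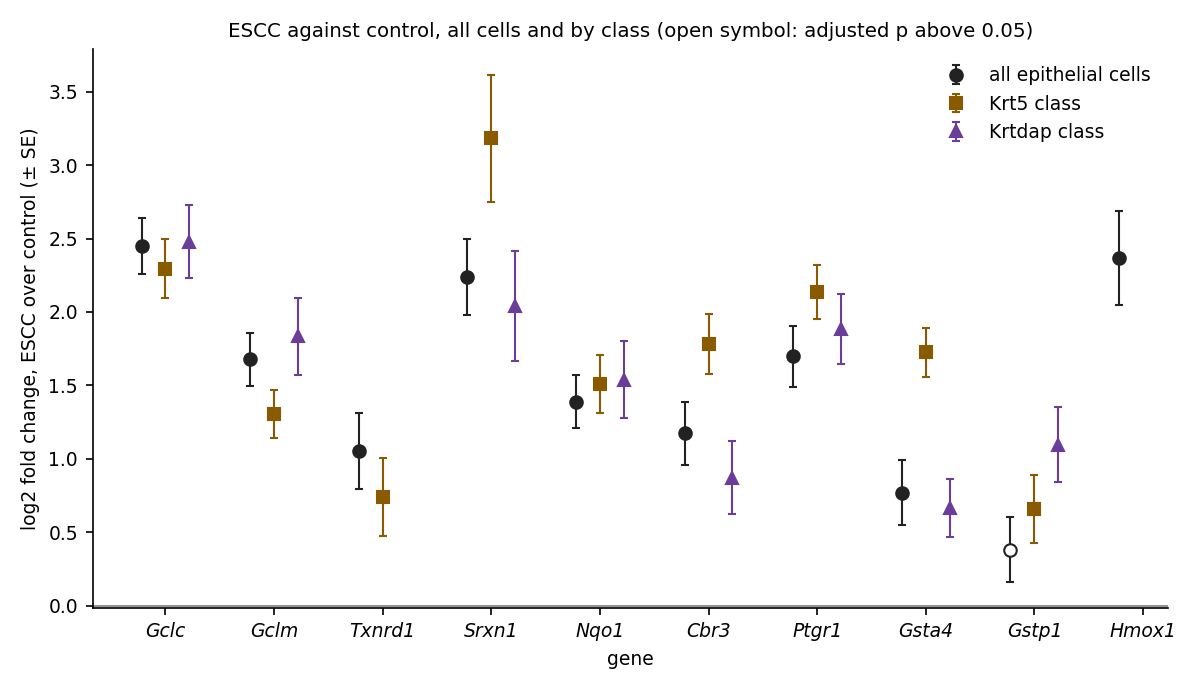
Log2 fold change of ESCC over control (y axis, with the SE as bars) for each gene (x axis) over all epithelial cells (circles), within the Krt5 class (squares) and within the Krtdap class (triangles), with open symbols for an adjusted p above 0.05. All values lie above 0, and Gsta4, Cbr3 and Srxn1 are among the genes that are highest in the Krt5 class. Gstp1 is open over all cells, and classes without a symbol were not tested.

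Beyond these 10 genes, lists of 106 genes of the same pathway were compared, of which 104 were among the genes counted and 71 passed the filter. In ESCC, 31 rose and 10 fell, with a median log2 fold change of 0.27, where 17.9% of all genes tested were called higher and 16.7% lower. Glutathione genes rose in 8 of 13 tested (median 1.11) and none fell. Slc7a11, the cystine importer that feeds glutathione synthesis, had the largest difference of the list. It had 0 to 31.2 CPM in controls (median 13.5) and 673 (17F), 987 (17M) and 356 CPM (8M) in ESCC, a 38.3-fold difference (log2 fold change 5.26 ± 0.33, adjusted p = 1.9e-14). Of the glutathione transferases 4 of 9 tested rose and 1 fell. Gsta3 rose (2.82 ± 0.27, adjusted p = 2.6e-09), Gstt3 fell (−1.07 ± 0.23, adjusted p = 0.000484), and Gsta1 had 231 UMIs in ESCC and 3 in controls, with a 95% counting interval of 10.1 to 147 for the ratio. Of the carbonyl and quinone enzymes 6 of 11 tested rose and 1 fell. The aldo-keto reductase Akr1b8 rose (2.93 ± 0.19, adjusted p = 9.2e-14) from 63.8 to 121 CPM in controls to 697 to 872 in ESCC, and the aldehyde dehydrogenase Aldh1a7 fell (−2.02 ± 0.39, adjusted p = 0.000126).

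The other lists split more evenly, and no list was tested against the 17.9% higher and 16.7% lower of all genes. Of the thioredoxin genes 2 of 8 tested rose and 3 fell, among them the peroxiredoxin Prdx6 (−0.83 ± 0.20, adjusted p = 0.00156). In the NADPH-producing list 2 of 7 rose and 2 fell, among them Pgls of the pentose phosphate pathway (−0.91 ± 0.20, adjusted p = 0.000809). All 3 exporters tested (Abcc1, Abcc3 and Abcc4) rose. Of the regulators 3 of 9 tested rose and 1 fell, which was the small MAF gene Maff (−2.13 ± 0.35, adjusted p = 1.4e-05). Of 4 superoxide and peroxide genes tested 1 rose and 1 fell, and of 4 genes of the aryl hydrocarbon receptor pathway tested none was called. Of 4 heme and iron genes tested 2 rose and 1 fell.

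The iron-storage gene Ftl1 was called 45.4-fold higher in ESCC (log2 fold change 5.50 ± 0.27, adjusted p = 6.0e-17). Over all deposited cells it had 46 UMIs in controls, or 26.3 CPM without scaling, and 1020.1 CPM in ESCC. The same tables gave Gapdh 5 UMIs, Rpl23a 1 UMI and Actg1 0 UMIs over all control cells, against 8784, 1436 and 234 in ESCC. Gapdh, Rpl23a, Actg1 and Ftl1 are used by nearly every cell and are known to have many pseudogene copies. The part of read assignment in these differences was not tested, and Ftl1 is reported with that limit. Of 159 ribosomal protein and respiratory chain genes tested, 107 were called higher in ESCC and 3 lower.

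To compare single cells at one depth, the UMIs of each cell were drawn down to 1000 at random, which left out 758 of 1493 control cells that were shallower and no ESCC cell. In ESCC a cell then held a UMI of 3.55 (17F), 3.88 (17M) and 4.09 (8M) of the 10 genes on average, for a mean of 3.84 ± 0.27 (SD, n = 3). In control mice these averages lay between 2.30 and 2.86. The control cells left out were not a random draw, since depth differed between control clusters. Median UMIs per cell were 899.5 and 1123 in the clusters of the Krt5 class, 914 in the intermediate one and 1381 and 1449 in those of the Krtdap class. Without thinning, a cell in ESCC held a UMI of 5.66 to 6.38 of the 10 genes. After thinning, cells with a UMI of 5 or more of the 10 genes made up 31.3% (17F), 35.3% (17M) and 43.8% (8M) of the ESCC cells and 3.97 to 13.6% of the control cells. Cells with none were 0.765 to 3.41% of each ESCC mouse. Thinning to 500 UMIs left out at most 15 cells of a control mouse. The averages were then 2.47 to 2.775 in ESCC mice and 1.30 to 1.63 in control mice. Cells with a UMI of 5 or more genes then made up 12.4 to 16.6% and 0.508 to 1.64%.

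**Figure D3:**
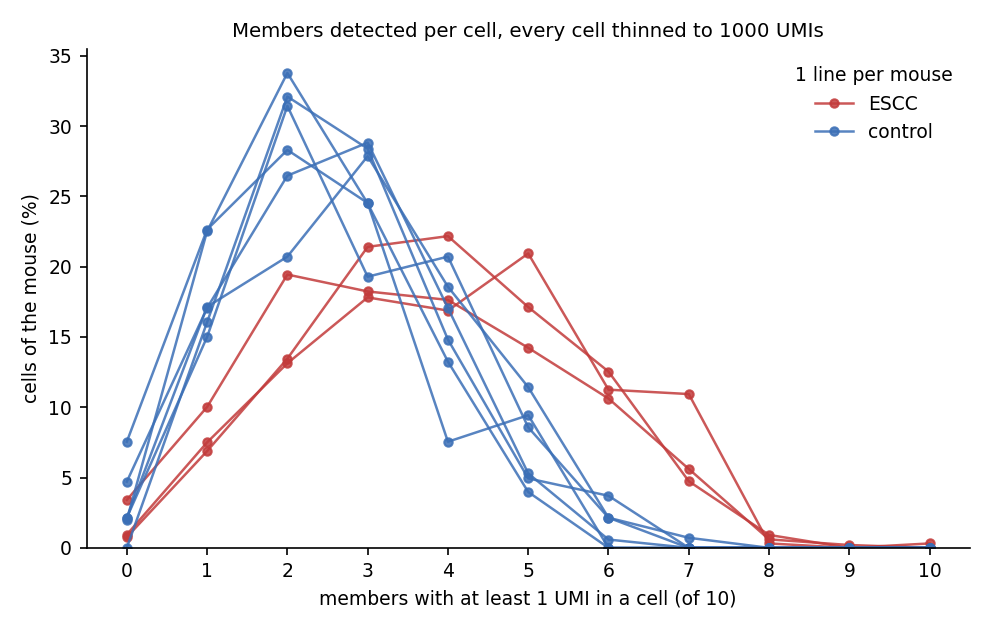
Share of the cells of a mouse (y axis, %) by the number of the 10 genes with at least 1 UMI (x axis), with every cell thinned to 1000 UMIs and 1 line for each of 6 control and 3 ESCC mice. The ESCC lines are shifted to the right of the control lines and reach 8 to 10 genes, with averages of 3.55 to 4.09 against 2.30 to 2.86.

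The distribution over ESCC cells differed from gene to gene. At 1000 UMIs Gsta4 had a UMI in 84.2 to 88.4% of the cells of each ESCC mouse (unthinned 96.2% of 1429 cells) and Gclm in 60.9 to 74.8%. Gclc had one in 39.5 to 45.3% and Nqo1 in 25.5 to 36.2%, and Txnrd1, Srxn1 and Hmox1 had one in 4.69 to 10.3%. The control shares at this depth were 70.6 to 82.9% for Gsta4, 30.7 to 40.7% for Gclm and 14.8 to 20.8% for Gclc. Nor did the ranges of ESCC and control mice overlap for Nqo1, Ptgr1, Srxn1 and Hmox1. They did overlap for Cbr3 (43.3 to 55.9% in ESCC and 24.5 to 48.6% in controls). The same held for Gstp1 (19.0 to 37.5% and 22.5 to 37.9%) and Txnrd1 (5.41 to 6.57% and 1.43 to 7.41%). Gclc was more uneven among ESCC cells than its partner subunit. Its variance over its mean was 2.02 to 2.99 in the 3 mice, and that of Gclm was 1.46 to 1.60. Values for Ptgr1 (2.17 to 2.50) and Gsta4 (2.12 to 2.32) lay in the range of Gclc. In controls the value of Gclc was 0.929 to 1.23. Its mean there was 0.160 to 0.264 UMIs per cell, against 0.804 to 1.01 in ESCC. The measure depends on the mean, so it does not compare the 2 groups alike. The tenth of the ESCC cells with most Gclc held 47.2 to 51.9% of its UMIs, against 28.8 to 34.3% for Gclm. A single ESCC cell held at most 15 Gclc UMIs of its 1000.

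As a gauge of free RNA in the droplets, 21 ESCC cells were used that had been called non-epithelial, since their UMIs of non-epithelial markers numbered at least 3 and exceeded those of epithelial markers, with a median of 2070 UMIs per cell against 3110 in the other 1429 ESCC cells outside cluster 9. Without thinning, Gsta4 and Gstp1 had no UMI in these 21 cells (exact 95% interval 0 to 16.1%), and Gclm and Gclc had one in 1 cell each (4.76%, 0.12 to 23.8%). In the other ESCC cells the shares were 96.2%, 55.4%, 91.3% and 66.3%. The rule that chose the 21 cells favors droplets with little epithelial RNA. In the 44 cells of cluster 9, led by immune genes, Krt5 had a UMI in 100.0%, Gsta4 and Gclm in 88.6% each, Gclc in 56.8% and Gstp1 in 52.3%. Txnrd1 was found in 3 of the 21 cells (14.3%, 3.05 to 36.3%) and in 19.0% of the others, at 69.6 and 68.6 CPM without scaling. Whether its UMIs in the 21 cells were free RNA or the cells' own was not tested. Intervals and floors cover counting error only.

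Pairs of genes were weakly related over cells of 1 mouse at 1000 UMIs. Spearman's rho over the 45 pairs lay between −0.03 and 0.46 in the 3 ESCC mice, and 5 pairs exceeded 0.2 in every mouse. The highest was that of Gsta4 and Ptgr1 (0.35 to 0.46), and the pairs of Gclc with Cbr3 (0.27 to 0.31), Ptgr1 with Cbr3 (0.26 to 0.32), Gclc with Gclm (0.23 to 0.33) and Gsta4 with Cbr3 (0.21 to 0.25) followed. These are descriptions over cells that share libraries, and sparse counts hold them down.

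The ESCC cells were split into 9 clusters without use of the member or pathway genes, and levels in them are CPM without TMM scaling. Gsta4, Ptgr1, Cbr3, Gstp1, Srxn1 and Nqo1 had their highest or second highest level of the 8 clusters other than 9 in cluster 8. That cluster was led by Krt4, Krt1, Krt10, Sprr3 and Cnfn, genes of differentiating and keratinizing cells. There Ptgr1 had 2751 and Gstp1 had 760.4 CPM, against 571 and 195 in cluster 5, led by Dusp6 and Adamts1. Cluster 3, led by Krt16, Krt6b and S100a9, had 5374 for Gsta4, 2557 for Ptgr1 and 114 for Hmox1. Gclc and Gclm followed another order, with 1332 and 2130.1 in cluster 2 and 1266 and 1810.2 in cluster 1, the cluster of G2/M genes. In cluster 7, led by Cxcl10, Krt17 and Acta2, Gclc had only 238, Nqo1 194 and Cbr3 388. Across clusters the highest level over the lowest was 5.60 for Gclc, 4.81 for Ptgr1 and 2.55 to 3.91 for the other 8 genes.

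Mice did not contribute alike to these clusters. Clusters 2, 3, 5 and 7 held at most 5 cells of mouse 8M and cluster 8 held 3 cells of 17M, so levels there rest on 2 mice, and no test was made between clusters. Of the 93 cells of cluster 8, 66 were from 8M, the mouse with the highest Gstp1 level over all cells, and cluster 5 held none of 8M. Within 17F, which had cells in both, Gstp1 was at 738 CPM in cluster 8 and 196 in cluster 5, and Ptgr1 at 2233 and 380.1. The order for Gclc differed between mice, since its level in cluster 8 was the highest of the 8 clusters in 17F (1661) and the lowest of the 4 of these clusters with at least 10 cells in 8M (804). In the 2 mice with at least 10 cells, Gclc in cluster 7 was at 137 to 292 and in cluster 2 at 1286 to 1412. Gclc in cluster 7 was thus near the 178 to 251 CPM of whole control epithelium, although the 2 scales differ in the TMM factor.

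**Figure D4:**
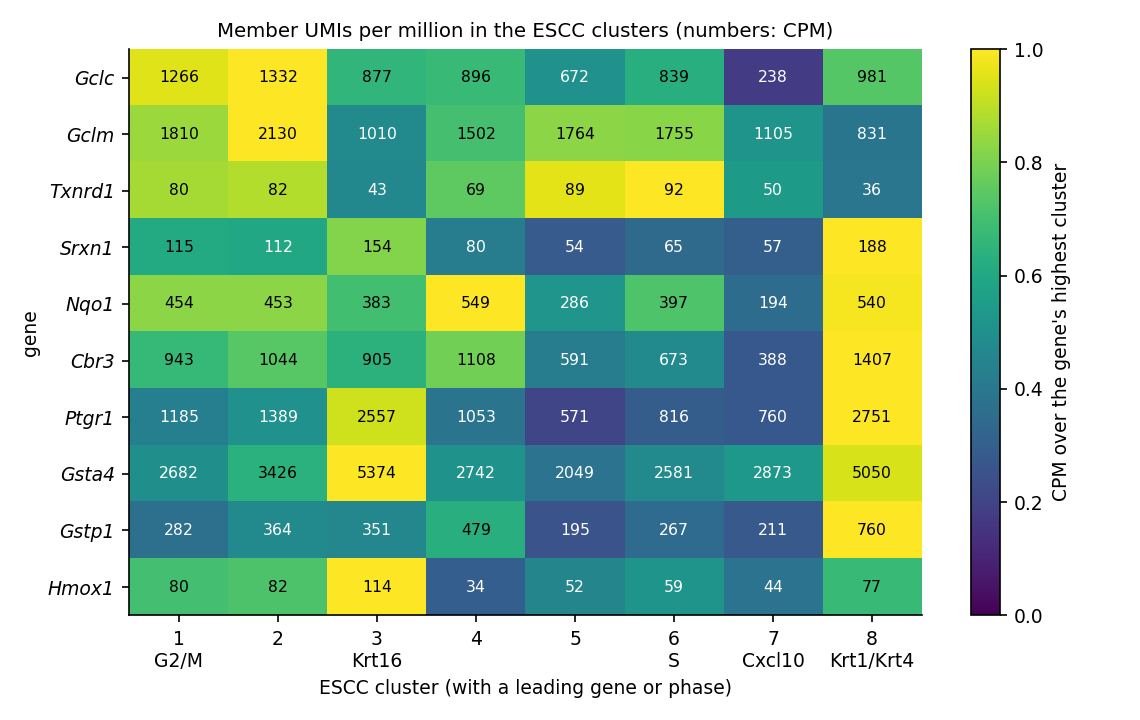
CPM of each gene (vertical axis) in ESCC clusters 1 to 8 (horizontal axis, with a leading gene or cell cycle phase), as numbers, colored by the level over that gene's highest cluster from 0 to 1. Gsta4, Ptgr1 and Srxn1 are brightest in clusters 3 and 8, Gclc and Gclm in clusters 1 and 2, and Gclc is darkest in cluster 7 at 238.

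In EoE, 6 of the 10 genes were called lower than in controls and none higher, where over all genes tested 25.0% were called lower and 9.46% higher. The median log2 fold change of the 10 genes was −1.46 and that of all genes −0.75. Of the 159 ribosomal protein and respiratory chain genes tested, 89 were called lower and 12 higher. Rplp1, a ribosomal protein, had 252 CPM over all deposited EoE cells and 16659 over all control cells, and Cox5a, Ndufb6 and Ost4 had 0 UMIs in EoE and 916, 459 and 474 in controls. Of 813 genes at 200 CPM or more over all control cells, 8 (0.984%) had no UMI over all EoE cells and 63 (7.75%) lay below 0.1 of the control level. The part of these lower values in the differences below was not tested. In mouse 11, with 11 cells, 1 UMI amounted to 106 CPM.

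Gsta4 had 742 CPM in EoE mouse 9, 1038 in 10, 634 in 11 and 407 in 12, all below the control range of 1994 to 3123 (log2 fold change −1.71 ± 0.27, adjusted p = 8.5e-06). Gclm had 258 (9), 222 (10), 106 (11) and 204 CPM (12), also below all controls (−1.41 ± 0.30, adjusted p = 0.000598). Ptgr1 had 226 (9), 173 (10), 0 (11) and 305 CPM (12), against at least 456 in controls (−1.50 ± 0.35, adjusted p = 0.00147). These 3 genes, on 79, 22 and 20 UMIs, were among 6 of the 10 that lay below the controls in every EoE mouse. How many of all genes tested did so was not counted, so this is not read as particular to these genes. Nqo1 rested on 5 UMIs, with 64.5 (9), 24.7 (10), 106 (11) and 50.9 CPM (12), below the controls (−2.03 ± 0.50, adjusted p = 0.00264). Without mouse 10 its log2 fold change was −1.60 and its adjusted p was 0.0509.

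Cbr3 had 3 UMIs in EoE, all in mouse 10, and 843 in controls, a ratio of 0.0565 (95% counting interval 0.0116 to 0.166). Gstp1 had no UMI in EoE and 566 in controls. The control level of Gstp1 was 11.9-fold above a floor of 3 UMIs over the EoE group, or 29.8 CPM. The ratio of Gstp1 to control had a 95% counting interval of 0 to 0.104. Both were called lower (adjusted p = 1.6e-06 and 7.4e-06).

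The other 4 genes were not called and were counted by few UMIs. Gclc had 129 (9), 396 (10), 211 (11) and 204 CPM (12), around the control median of 218 (log2 fold change 0.21 ± 0.32, adjusted p = 0.636). Txnrd1 (6 UMIs), Srxn1 (3 UMIs) and Hmox1 (4 UMIs) ranged from 0 to 102, 0 to 106 and 0 to 106 CPM over the 4 mice. Their ratios to control had 95% counting intervals of 0.535 to 3.48, 0.206 to 3.22 and 0.598 to 6.75, so that a difference was not detectable at this depth.

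These values depended on which EoE cells were counted. Over all 1500 deposited EoE cells, where 21.4% of 5971 genes were called higher and 29.3% lower, 2 of the 10 genes were called higher and 4 lower. Gclc then had 350 to 514 CPM in the 4 EoE mice and 165 to 234 in the 6 control mice, without overlap, and was called higher (log2 fold change 1.07 ± 0.19, adjusted p = 5.6e-05). Gclm turned from lower to higher, from 505 to 994 CPM against 434 to 617 (0.56 ± 0.19, adjusted p = 0.0169). Nqo1 had 91.4 to 257 CPM against 153 to 228 and was no longer called (−0.12 ± 0.26, adjusted p = 0.725). Gsta4, Gstp1, Ptgr1 and Cbr3 were called lower over either set of cells.

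**Figure D5:**
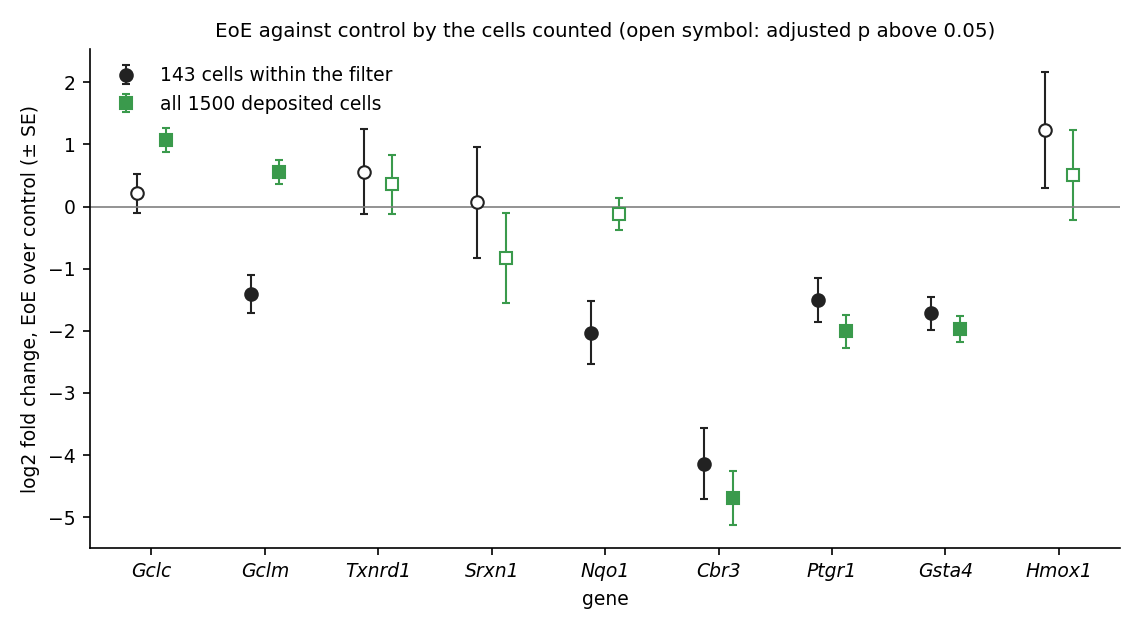
Log2 fold change of EoE over control (y axis, with the SE as bars) for 9 genes (x axis) from the 143 EoE cells within the filter (circles) and from all 1500 deposited EoE cells (squares), with open symbols for an adjusted p above 0.05. Gclm lies below 0 in the first set (−1.41) and above 0 in the second (0.56), Cbr3, Ptgr1 and Gsta4 lie below 0 in both, and Gstp1 is left out since it had no UMI in the first.

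Of the 71 other pathway genes tested, 4 rose and 28 fell in EoE (median log2 fold change −1.14). Over all genes tested 9.46% were called higher and 25.0% lower, or 21.4% and 29.3% over all deposited cells. Over all deposited cells 10 of 72 tested rose, among them Keap1 (1.04, adjusted p = 0.0181) and the superoxide dismutase Sod1 (1.30, adjusted p = 3.3e-06), and 29 fell (median −0.65). Glrx, a glutaredoxin, rose (4.41 ± 0.48, adjusted p = 1.7e-08), with 774 (9), 593 (10), 106 (11) and 305 CPM (12) against 0 to 51.4 in controls. Aldh1a7, which fell in ESCC, rose in EoE (2.64 ± 0.40, adjusted p = 7.4e-06), and its levels of 634 to 1222 CPM lay above the 77.4 to 260.3 of the controls. Aldh3a1 (1.09 ± 0.34, adjusted p = 0.0128) and Mafg (1.07 ± 0.28, adjusted p = 0.00472) were the others that rose. Over all deposited cells Aldh3a1 was not called (0.36, adjusted p = 0.378). Of those that fell, Cat (209 UMIs in controls) and Cbr1 (112 UMIs) had no UMI in EoE. The control levels were 4.39-fold (Cat) and 2.35-fold (Cbr1) above the floor of 3 UMIs over the group. The ratios of Cat and Cbr1 to control had 95% counting intervals of 0 to 0.283 and 0 to 0.532. Over all deposited cells the log2 fold change was −1.71 for Cat (adjusted p = 0.000738) and −3.13 for Cbr1 (adjusted p = 0.0045). Taldo1, Mgst2 and Pgls had 2 UMIs each in EoE, with ratios of 0.0472 (0.0057 to 0.171), 0.0514 (0.00621 to 0.186) and 0.0865 (0.0104 to 0.315).

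ESCC and EoE were also compared with each other, a comparison that shares its samples with those above. All 10 genes passed the filter and 8 were called higher in ESCC, where 29.9% of all genes tested were called higher. The median log2 fold change was 2.79 for the 10 genes and 0.81 for all. Hmox1 and Txnrd1 were not called. Srxn1 was no longer called without EoE mouse 9 (1.70, adjusted p = 0.0639) or mouse 10 (1.98, adjusted p = 0.0825), and Hmox1 was called over all deposited cells (1.81, adjusted p = 0.00724).

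Old and young controls were compared to see how far age moves these genes. None of the 7 genes that passed the filter was called, where 4 of 5149 genes were called higher (0.0777%) and 1 lower (0.0194%), and 152 and 107 had an unadjusted p below 0.05. DESeq2 called none of the 10 genes either. Log2 fold changes of old over young lay between −0.21 ± 0.21 for Ptgr1 and 0.26 ± 0.21 for Gclc (unadjusted p of 0.335 and 0.233).

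Gsta4, which carried the most UMIs of the 10 genes, was compared with all other tested genes over the 13 mice. The genes with the highest Pearson correlation of log2 CPM were Uqcrb (0.96), Rpl7 (0.96), Nsa2 (0.96), Krt5 (0.96) and Snrpb (0.96). Of the other 9 genes Cbr3 came next (0.94, rank 38 of 5866), and Hmox1 was last (0.29). These correlations describe 13 points in 3 groups that differ in depth and in library.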

How the data were processed

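Esophageal epithelial cells of 13 mice were profiled in 22 inDrop libraries, 2 per control or ESCC mouse and 1 per EoE mouse. Barcodes were read by the authors with UMI-tools 1.0.0, who then aligned the reads with STAR 2.7.3 to GRCm38 (GENCODE M23) and counted them with featureCounts, and who drew 1500 cells per condition. The deposited values are whole UMI counts per gene and cell without normalization.

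Cells with 250 to 3500 genes and 100 to 9500 UMIs were kept, and cells whose non-epithelial marker UMIs numbered at least 3 and exceeded those of epithelial markers were removed. Counts were summed per mouse and tested with edgeR 4.0.16 in R 4.3.3 (quasi-likelihood test after filterByExpr and TMM, threshold 0.05 after Benjamini-Hochberg adjustment over every gene tested). The fit held the 13 mice as 3 groups, the control mice alone for age, or control and ESCC mice for classes. Standard errors were taken from the F statistic. DESeq2 1.42.0 was an alternative. Control and ESCC cells were clustered apart with scanpy 1.11.5 (2000 variable genes, 50 components, 15 neighbors, Leiden resolution 1). The class of a cell was the commonest among its 15 closest control cells from other mice. Scrublet marked 260 of 4500 deposited cells as doublets (5.78%). Among the cells used, it marked 49 of 70 of control mouse 3, 39 of 196 of control mouse 2 and 57 of 1473 of ESCC. Doublets were kept except in an alternative. Without them 9 genes were called in ESCC, 6 in EoE and 8 between ESCC and EoE, as with them. On simulated data with 200 genes changed by a log2 fold of 2, edgeR recovered 190 (95.0%) at the depth of ESCC and control and 96 (48.0%) at that of EoE and control. It also called 17 unchanged genes at the first depth and 10 at the second. Positions are those of GENCODE M21, which uses GRCm38 too. A total of 3 counts over a group was taken as the floor.

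The 10 genes, the pathway lists, the markers and the tests were chosen with earlier results of these data known. Named were the 10 genes, Nfe2l2, Keap1, up to 5 pathway genes per direction with the largest fold among those called at an average log2 CPM of at least 5, and the 5 genes most like the member with the highest mean CPM. Others named were chosen after their values were seen. Gsta13 and Abcc2 of the pathway lists were not analysed here. Alternatives covered the cells, the scaling, the filter, the tool, the mice in the fit and each mouse left out in turn. The labels name no sequencing batch.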

Additional observations from a re-analysis of the deposited data

Results flagged for a closer look

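Gsta4 and Cbr3 had an ESCC difference that differed between the classes of cells, by a test of the difference itself. The log2 fold change in the Krtdap class minus that in the Krt5 class was −1.06 for Gsta4 (adjusted p = 0.000506) and −0.89 for Cbr3 (adjusted p = 0.00566), with edgeR. In the Krt5 class both genes were at a lower level in controls than in the Krtdap class, with 909 against 3928 CPM for Gsta4 and 294 against 676 for Cbr3.

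Among the 4 EoE mice, mouse 10 stood apart in Cbr3, with 74.2 CPM from 3 UMIs against 0 in the 3 others. Of 23 groups of mice examined for such a gap this was the only 1, and chance gives about 1 in 20. With the 3 others at 0, any UMI in mouse 10 makes such a gap, so the flag carries no weight of its own. Mouse 10 also had the most UMIs of the EoE mice (41909, against 6245 to 31858).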

How the results depend on the processing

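The 9 genes called higher in ESCC kept that direction under every alternative run in which they were tested. Counts of the 10 genes called higher were 8 from the first library of each mouse, where Hmox1 was not tested, 7 with each mouse thinned to the smallest control total of 111043 UMIs, where Hmox1 and Txnrd1 were not, and 8 to 9 with a mouse left out. The counts over all genes moved more, from 2030 to 1189 and 650. In EoE, Gclm reversed to 0.56 with all deposited cells. Called genes in EoE were 2020, and 1110 to 2010 with a mouse left out, the lowest without mouse 10. Between ESCC and EoE they were 2441, 679 with those groups alone and 1572 to 2509 with a mouse left out, the lowest again without EoE mouse 10. Between old and young controls they were 5, 24 without a filter and 0 to 8 with a mouse left out. In the Krt5 class they were 1159, 1871 without a filter and 759 to 1426 with a mouse left out, the lowest without 17F. Genes detected per ESCC cell were 3.84 at 1000 UMIs, 5.96 without thinning and 2.64 at 500 UMIs. Gstp1 in the Krtdap class was not called when cells were classed by their own Krt5 and Krtdap UMIs (0.60, adjusted p = 0.101). The scaling moved the median of all genes in ESCC against control from 0.01 (TMM) to 0.12 (DESeq2 size factors) and −0.17 (library size alone). The first-library alternative, the one without cluster 9 and a TMM without ribosomal and respiratory genes (6 genes called lower in EoE) were chosen after seeing the data. Except where stated, the cause was not tested. No paired analysis was possible because the groups share no replicate numbers. Depth limits EoE, where 97975 UMIs were used.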
